A study of Mus musculus with 12 samples.

Results

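Msx1, Msx2, Twist1, Snai1, Snai2, Sox9, Scx, Prrx1, Vcan and Has2 are genes of the mesenchyme that fills the endocardial cushions and later builds the heart valves. They were taken by symbol from the deposited table of raw counts, in which these 10 genes are 10 of 45664 rows. All 10 were past the low-count filter that left 20691 genes for testing. The 12 libraries were made from RNA of entire hearts of mouse embryos, 3 hearts in each of 4 groups. The groups were Ino80-disrupted (KO) hearts at E14.5 (day of embryonic development), wild-type (WT) hearts at E14.5, KO hearts at E13.5 and WT hearts at E13.5. The labels give the disruption as endothelial, by way of Tie2, and do not give the strain, any treatment or the deleted part of Ino80. All 6 E13.5 hearts came from litter 1. At E14.5, KO replicates 2 and 4 and WT replicates 7 and 8 came from litter 2, and KO replicate 1 and WT replicate 7.2 from litter 3. Stage and litter therefore cannot be told apart, while every litter held both genotypes.

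Cushions form where endocardial cells, the endothelium that lines the heart, lose their junctions and move as mesenchymal cells into a swollen matrix, a change known as endothelial-to-mesenchymal transition (EMT). Bone morphogenetic protein (BMP), TGF-beta and Notch signals start it, Snai and Twist transcription factors carry it out, and the matrix that receives the cells is made of hyaluronan and the proteoglycan versican. Much of this mesenchyme descends from endocardium and so inherits an allele recombined there, while part of the outflow mesenchyme comes from neural crest and part of the leaflets from epicardium. INO80 is the ATPase of a chromatin remodelling complex that moves nucleosomes. Each of the 10 genes is also expressed outside the valves, in tissues such as limb, cartilage, tendon or connective tissue.

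Libraries held 46556032 to 182545647 counts. The least abundant of these genes, Msx2, had 95 to 624 counts per library, the lowest counts being at E14.5. Ino80 itself averaged 29.5 ± 2.5 CPM in E14.5 KO hearts, against 32.03 ± 1.6 CPM in E14.5 WT hearts, and 29.6 ± 0.03 CPM in E13.5 KO hearts, against 33.7 ± 2.9 CPM in E13.5 WT hearts (SD, n = 3 each). CPM is counts per 1e+06 counts of the library, scaled between libraries by TMM. The decrease was -0.15 ± 0.06 (log2, SE) averaged over the stages and did not pass the edgeR test (adjusted p = 0.220). Whole hearts hold many cells outside the endothelium, and counts from outside the deleted part, which is not known here, would not show the disruption. All 10 markers of endocardium and endothelium had counts in every library, with sums of 1165 to 1190 CPM in E14.5 KO hearts, 938 to 1165 CPM in E14.5 WT hearts, 1122 to 1162 CPM in E13.5 KO hearts and 1137 to 1235 CPM in E13.5 WT hearts. Nothing in the labels ties a library to more than 1 heart, and p-values measure the spread between hearts.

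RefSeq promoter windows of GRCm38.p6, 250 bases before to 50 after each start, were found for 6 of the 10 genes. Has2, Snai2, Sox9 and Scx were not among them. Of the 6, 3 are shown here because their genes carry the stage results given further on: Msx2 was lower at E14.5, Twist1 had the lowest estimates of the 10, and Prrx1 had estimates in the other direction. Capitals mark CANNTG, the letters that basic helix-loop-helix factors such as Twist1 bind, and TAATTA or TAATTG, core letters for homeodomain factors such as Msx1, Msx2 and Prrx1, on either strand.

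Msx2, chr13:53472731-53473030, minus strand: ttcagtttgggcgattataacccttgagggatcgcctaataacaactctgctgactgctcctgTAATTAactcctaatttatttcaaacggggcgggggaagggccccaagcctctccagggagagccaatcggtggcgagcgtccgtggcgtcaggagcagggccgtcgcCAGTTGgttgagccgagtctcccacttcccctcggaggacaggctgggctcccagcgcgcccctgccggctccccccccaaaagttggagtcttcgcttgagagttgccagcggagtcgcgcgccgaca

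Prrx1, chr1:163313601-163313900, minus strand: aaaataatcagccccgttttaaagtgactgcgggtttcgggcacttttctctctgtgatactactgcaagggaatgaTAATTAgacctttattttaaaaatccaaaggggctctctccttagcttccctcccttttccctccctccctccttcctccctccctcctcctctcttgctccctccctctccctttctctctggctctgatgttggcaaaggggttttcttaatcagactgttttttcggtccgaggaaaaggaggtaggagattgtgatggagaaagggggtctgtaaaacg

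Twist1, chr12:33957421-33957720, plus strand: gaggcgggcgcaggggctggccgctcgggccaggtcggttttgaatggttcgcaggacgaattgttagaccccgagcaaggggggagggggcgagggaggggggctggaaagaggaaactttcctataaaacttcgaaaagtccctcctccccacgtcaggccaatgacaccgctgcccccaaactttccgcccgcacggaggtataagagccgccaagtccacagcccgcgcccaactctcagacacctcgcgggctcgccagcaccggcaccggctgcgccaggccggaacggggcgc

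The Msx2 window held TAATTA at position -187 and CANNTG at position -79, the Prrx1 window held TAATTA at position -173, and the Twist1 window held neither. Positions are those of the first base of a match, with the window opening 250 bases before the start. TAATTA was in 2 of the 6 windows, against 5.29% of 32851 RefSeq promoter windows of 300 bases, and TAATTG in 0 of the 6, against 8%. CANNTG was in 4 of the 6, against 72.3% of all windows. CAGGTG, the form of CANNTG that Snai1 and Snai2 bind, was in 2 of the 6, Msx1 and Snai1, against 20.2%. These are matches of letters and do not show a bound site.

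Levels were compared between genes only per length, as CPM per kilobase of merged exons. In E14.5 WT hearts Vcan led with 15.1 ± 4.1 CPM per kilobase. Twist1 (4.54 ± 1.29), Sox9 (4.38 ± 0.62), Snai2 (4.27 ± 0.36) and Snai1 (4.07 ± 0.09) followed at levels whose ranges overlapped. Below them stood Scx at 2.56 ± 0.21 and Prrx1 at 2.06 ± 0.30 CPM per kilobase, which overlapped narrowly, then Msx1 at 1.52 ± 0.27, which overlapped Prrx1, Has2 at 0.844 ± 0.134 and Msx2 at 0.618 ± 0.002 (SD, n = 3 each). In E13.5 WT hearts the order began with Vcan at 18.1 ± 3.2 and Twist1 at 8.46 ± 0.74 CPM per kilobase, now clear of Sox9 at 5.26 ± 0.28. Sox9 and Snai2 (4.85 ± 0.14) did not overlap there, while Snai1 (4.81 ± 0.56) overlapped both. The lower part of the order ran Scx, Msx1, Prrx1, Has2 and Msx2, with overlap only between Has2 and Msx2. In KO hearts Vcan and Twist1 also led by mean and Msx2 was last at both stages.

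**Figure D1:**
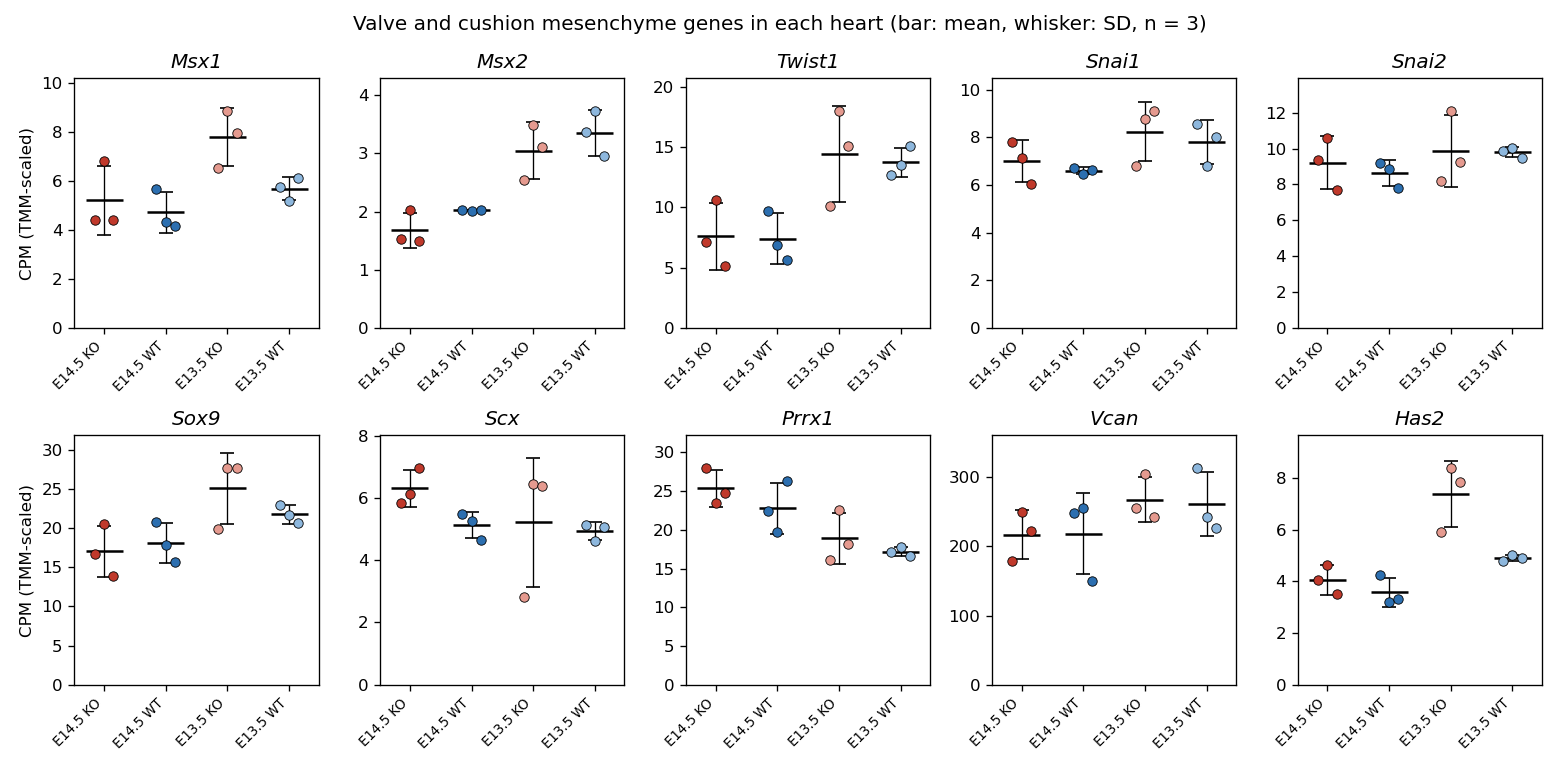
CPM (TMM-scaled, linear axis from 0) of each gene in the 4 groups, each point 1 heart, with the mean as a bar and the SD as a whisker (n = 3). Msx2 and Has2 in both genotypes, and Twist1, Snai1 and Snai2 in WT hearts only, lie lower at E14.5 than at E13.5 with no overlap. Prrx1 lies higher in both genotypes. The KO points lie above the WT points for Has2 and Msx1 at E13.5 and for Scx at E14.5.

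Msx1 and Msx2 encode homeobox repressors that BMP signals induce in the atrioventricular endocardium and cushion mesenchyme. In the order KO replicates 1, 2 and 4 and WT replicates 7, 7.2 and 8, Msx1 had 4.40, 4.40 and 6.82 CPM in E14.5 KO hearts, against 4.31, 4.17 and 5.68 CPM in E14.5 WT hearts. In the order KO replicates 3, 5 and 7 and WT replicates 1, 2 and 4, which holds for every E13.5 value that follows, it had 6.51, 8.86 and 7.97 CPM in E13.5 KO hearts, against 5.76, 6.10 and 5.17 CPM in E13.5 WT hearts. The genotypes overlapped at E14.5, while at E13.5 each KO heart was above each WT heart. The difference of 0.45 ± 0.19 (log2, SE, n = 3 each) at E13.5 did not pass the edgeR test (adjusted p = 0.436, unadjusted p = 0.0304), nor did 0.14 ± 0.19 at E14.5 (adjusted p = 0.908).

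Msx2 had 1.49, 1.52 and 2.02 CPM in E14.5 KO hearts, against 2.02, 2.03 and 2.03 CPM in E14.5 WT hearts. It had 2.53, 3.49 and 3.12 CPM in E13.5 KO hearts, against 3.37, 2.95 and 3.73 CPM in E13.5 WT hearts. The 3 E14.5 WT hearts were nearly equal, KO replicates 1 and 2 lay below them, and KO replicate 4 lay at their level. Msx2 was the 1 gene of the 10 with an estimate below 0 at both stages, -0.27 ± 0.19 at E14.5 and -0.14 ± 0.18 at E13.5 (log2, SE), and neither passed the edgeR test (adjusted p = 0.747 and 0.829). The stages did not overlap in either genotype. Msx2 fell by 0.86 on the log2 scale between the stages in KO hearts (SE 0.19, E14.5 over E13.5, a ratio of 0.553, adjusted p = 0.0304 by edgeR) and by 0.73 in WT hearts (SE 0.19, a ratio of 0.604, adjusted p = 0.0476).

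Snai1 and Snai2 encode zinc finger repressors that shut down cadherin genes during EMT, and Twist1 encodes a basic helix-loop-helix factor of cushion mesenchyme that keeps it proliferating and migrating. Twist1 had 5.13, 7.10 and 10.6 CPM in E14.5 KO hearts, against 6.87, 5.60 and 9.72 CPM in E14.5 WT hearts. It had 10.1, 18.0 and 15.1 CPM in E13.5 KO hearts, against 12.7, 15.1 and 13.49 CPM in E13.5 WT hearts. Genotypes overlapped at both stages, and the stages overlapped in KO hearts but not in WT hearts. The estimates between the stages were the lowest of the 10 genes, -0.91 ± 0.28 in KO hearts and -0.90 ± 0.29 in WT hearts (log2, SE), without passing the edgeR test (adjusted p = 0.103 and 0.0983).

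Snai1 had 6.05, 7.82 and 7.11 CPM in E14.5 KO hearts, against 6.44, 6.63 and 6.73 CPM in E14.5 WT hearts. It had 6.81, 8.79 and 9.11 CPM in E13.5 KO hearts, against 8.57, 8.03 and 6.79 CPM in E13.5 WT hearts. KO hearts lay on both sides of the WT hearts at E14.5, and the genotypes overlapped at E13.5. The estimates were 0.08 ± 0.14 at E14.5 and 0.08 ± 0.14 at E13.5 (log2, SE), with 95% intervals of -0.22 to 0.38 and -0.22 to 0.37. Snai1 lies on chromosome 2, as Ino80 does, 48.1 Mb away.

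Snai2 had 7.67, 9.39 and 10.6 CPM in E14.5 KO hearts, against 8.89, 7.81 and 9.21 CPM in E14.5 WT hearts. It had 8.20, 12.1 and 9.25 CPM in E13.5 KO hearts, against 9.84, 9.50 and 10.04 CPM in E13.5 WT hearts. The WT hearts again lay within the range of the KO hearts at E13.5. Its estimates were 0.10 ± 0.15 at E14.5 and 0.003 ± 0.146 at E13.5 (log2, SE), with 95% intervals of -0.22 to 0.41 and -0.31 to 0.32.

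Sox9, Scx and Prrx1 encode transcription factors of matrix-making mesenchyme: Sox9 drives cartilage-type matrix and is needed for cushion mesenchyme to expand, Scx is the basic helix-loop-helix factor of tendon and of fibrous valve parts, and Prrx1 is a homeobox factor of limb and connective tissue mesenchyme. Sox9 had 14.0, 16.6 and 20.5 CPM in E14.5 KO hearts, against 17.9, 15.7 and 20.8 CPM in E14.5 WT hearts. It had 19.9, 27.7 and 27.7 CPM in E13.5 KO hearts, against 23.0, 20.6 and 21.7 CPM in E13.5 WT hearts. KO replicates 5 and 7 were above all WT hearts of E13.5 and KO replicate 3 below them. Its KO estimate was -0.08 ± 0.16 at E14.5 and 0.20 ± 0.15 at E13.5 (log2, SE), and the difference between them, -0.29 ± 0.22, did not pass the edgeR test (adjusted p = 0.997).

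Scx had 6.96, 5.83 and 6.12 CPM in E14.5 KO hearts, against 5.25, 4.66 and 5.49 CPM in E14.5 WT hearts. It had 2.83, 6.44 and 6.39 CPM in E13.5 KO hearts, against 5.14, 5.08 and 4.62 CPM in E13.5 WT hearts. At E14.5 each KO heart was above each WT heart, and at E13.5 KO replicate 3 was far below the other 5 hearts and KO replicates 5 and 7 above them. The estimates, 0.30 ± 0.24 at E14.5 (adjusted p = 0.796) and 0.07 ± 0.24 at E13.5 (adjusted p = 0.944), did not pass the edgeR test. In GENCODE M21, Scx lies whole, over 2007 bases, inside Bop1 on the opposite strand, with 0 exonic bases in common. Bop1, a ribosome biogenesis gene, had 29.9 to 36.8 CPM in E14.5 KO hearts, against 28.2 to 33.4 CPM in E14.5 WT hearts, and unspliced Bop1 RNA cannot be told from Scx if strand was not used in counting.

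Prrx1 had 24.7, 28.0 and 23.4 CPM in E14.5 KO hearts, against 19.7, 26.3 and 22.4 CPM in E14.5 WT hearts. It had 16.1, 22.5 and 18.1 CPM in E13.5 KO hearts, against 17.1, 16.7 and 17.8 CPM in E13.5 WT hearts. Every E14.5 heart was above every E13.5 heart of its genotype, in the direction opposite to Msx2, Twist1 and Has2. The differences between the stages were 0.43 ± 0.13 in KO hearts and 0.41 ± 0.13 in WT hearts (log2, SE), with adjusted p = 0.0778 and 0.0818 by edgeR, above the threshold of 0.05. Its KO estimates were 0.15 ± 0.13 at E14.5 and 0.13 ± 0.13 at E13.5, and neither passed.

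Vcan and Has2 make the cushion matrix: Vcan encodes versican, the large proteoglycan that binds hyaluronan, and Has2 the synthase that makes most hyaluronan of the embryonic heart. Vcan had 222, 179 and 250.2 CPM in E14.5 KO hearts, against 255, 150.5 and 249 CPM in E14.5 WT hearts. It had 256, 304 and 243 CPM in E13.5 KO hearts, against 313, 227 and 243 CPM in E13.5 WT hearts. The hearts of each group differed widely, and the genotypes overlapped at both stages. The estimates of -0.01 ± 0.21 at E14.5 and 0.03 ± 0.20 at E13.5 (log2, SE) had 95% intervals of -0.46 to 0.45 and -0.42 to 0.49. A difference within those bounds is not excluded by these hearts.

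Has2 had 3.50, 4.04 and 4.63 CPM in E14.5 KO hearts, against 3.19, 3.31 and 4.23 CPM in E14.5 WT hearts. It had 5.93, 8.39 and 7.84 CPM in E13.5 KO hearts, against 4.77, 4.90 and 5.02 CPM in E13.5 WT hearts. At E13.5 the WT hearts were close together and each KO heart was above them, while the genotypes overlapped at E14.5. The E13.5 difference was 0.59 ± 0.16 (log2, SE), a ratio of 1.51 with a 95% interval of 0.24 to 0.94 on the log2 scale, and it did not pass the edgeR test over all genes (adjusted p = 0.240, unadjusted p = 0.00272). The E14.5 difference was 0.18 ± 0.17 (adjusted p = 0.826) and the average over the stages 0.39 ± 0.12 (adjusted p = 0.120). DESeq2, run as an alternative, called Has2 at E13.5 (log2 0.58, adjusted p = 0.0335) and averaged over the stages (log2 0.39, adjusted p = 0.0352). The change of the KO estimate between the stages, -0.41 ± 0.23, did not pass (adjusted p = 0.997 by edgeR). The antisense transcript Has2os shares 182 exonic bases with Has2, and its own row held 2 to 29 counts, against 171 to 1426 counts for Has2.

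Between the stages Has2 fell by 0.86 on the log2 scale in KO hearts (SE 0.16, E14.5 over E13.5, a ratio of 0.550, adjusted p = 0.0194 by edgeR), with no overlap. In WT hearts the estimate was -0.45 ± 0.16 (adjusted p = 0.125), again with no overlap. That the change passed in KO hearts and not in WT hearts does not show that they differ, since the test of that difference is the one that did not pass.

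Read as a group, none of the 10 genes was called between KO and WT hearts. In edgeR 0 of 10 passed at E14.5, where 0.222% of all genes tested did, and 0 had an unadjusted p under 0.05, against 9.59% of all genes. At E13.5 0 of 10 passed, against 0.106% of all genes, and 2 of 10, Msx1 and Has2, had an unadjusted p under 0.05, against 10.3% of all genes. Averaged over the stages 0 of 10 passed, against 1.42% of all genes, with the same pair under 0.05 unadjusted, against 14.7%. For the difference of the KO effect between the stages 0 of 10 passed, against 0% of all genes, and 0 of 10 were under 0.05 unadjusted, against 3.61%. DESeq2 called 0, 1, 1 and 0 of the 10 in these comparisons, against 1.7%, 1.53%, 4.58% and 0% of all genes. With so few genes called in all, 0 of 10 is near what the background gives.

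The KO estimates were small and mostly above 0. At E14.5 7 of 10 lay above 0 with a median of 0.09 (log2), against 48.1% of all genes and a median of -0.01. At E13.5 9 of 10 lay above 0 with a median of 0.08, against 50.4% and a median of 0.002. That count depended on 1 heart. Without E13.5 KO replicate 5 the E13.5 estimates of 5 more genes lay below 0, beside that of Msx2. These were Prrx1 (log2 -0.0088), Scx (-0.096), Snai2 (-0.17), Twist1 (-0.12) and Vcan (-0.068). Groups did not overlap, with KO above WT, for Scx at E14.5, against 6.81% of all genes, and for Msx1 and Has2 at E13.5, against 8.44%. The 10 genes share hearts and cells, so their directions are not independent of one another.

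**Figure D2:**
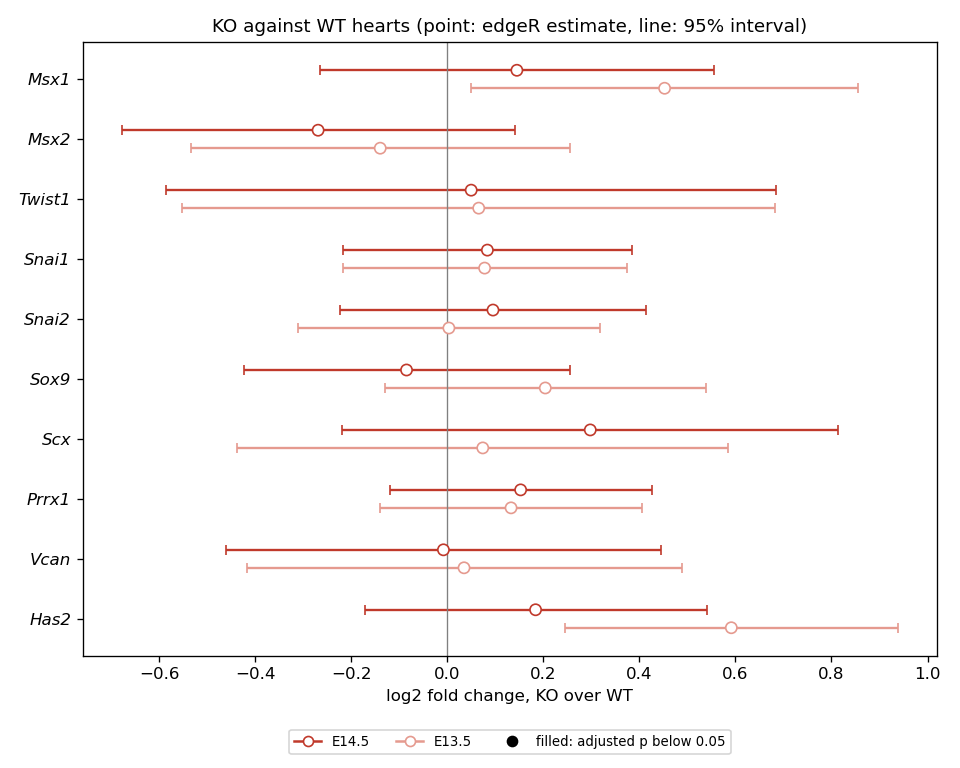
log2 fold change of KO over WT hearts for each gene (x axis) at E14.5 and E13.5, as the edgeR estimate with its 95% interval. No point is filled, since none passed at an adjusted p of 0.05; the intervals of Has2 and Msx1 at E13.5 lie above 0 before adjustment.

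The KO hearts of E13.5 differed more among themselves than the WT hearts did for these genes. KO replicate 5 was above KO replicate 3 in 10 of 10 genes, with ratios of 1.19 (Vcan) to 2.28 (Scx), while 45.7% of all genes had that order. Replicate 3 was the lowest KO heart of E13.5 for 9 of the 10, against 32.8% of all genes, and replicate 5 the highest for 9, against 30.3%. The order of replicates 5 and 3 largely follows from these places and adds little to them. Since the 10 genes share the same hearts, such counts over genes are not independent of one another. The SD of log2 CPM over 3 hearts was larger in KO than in WT for 9 of 10 genes, with medians of 0.26 and 0.10, whereas over all genes it was larger in KO for 44.4%, with medians of 0.12 and 0.13. Vcan was the exception, with an SD of 0.17 in KO hearts and 0.25 in WT hearts. Summed without Vcan, the other 9 genes came to 78.9, 116 and 105 CPM in KO replicates 3, 5 and 7, against 90.2, 89.0 and 88.4 CPM in WT replicates 1, 2 and 4. In bulk RNA, fewer cells of a type and less RNA per cell cannot be told apart.

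At E14.5 the spread followed the hearts in both genotypes. KO replicate 1 was lowest of its group for 7 of 10 genes and WT replicate 7.2 for 6, and both came from litter 3. KO replicate 4 and WT replicate 8, of litter 2, were each highest of their group for 7. For all genes these shares were 33.0%, 34.2%, 29.8% and 30.1%. The SD of log2 CPM was larger in KO for 7 of 10, against 55.4% of all genes, with medians of 0.24 in KO and 0.21 in WT hearts.

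**Figure D3:**
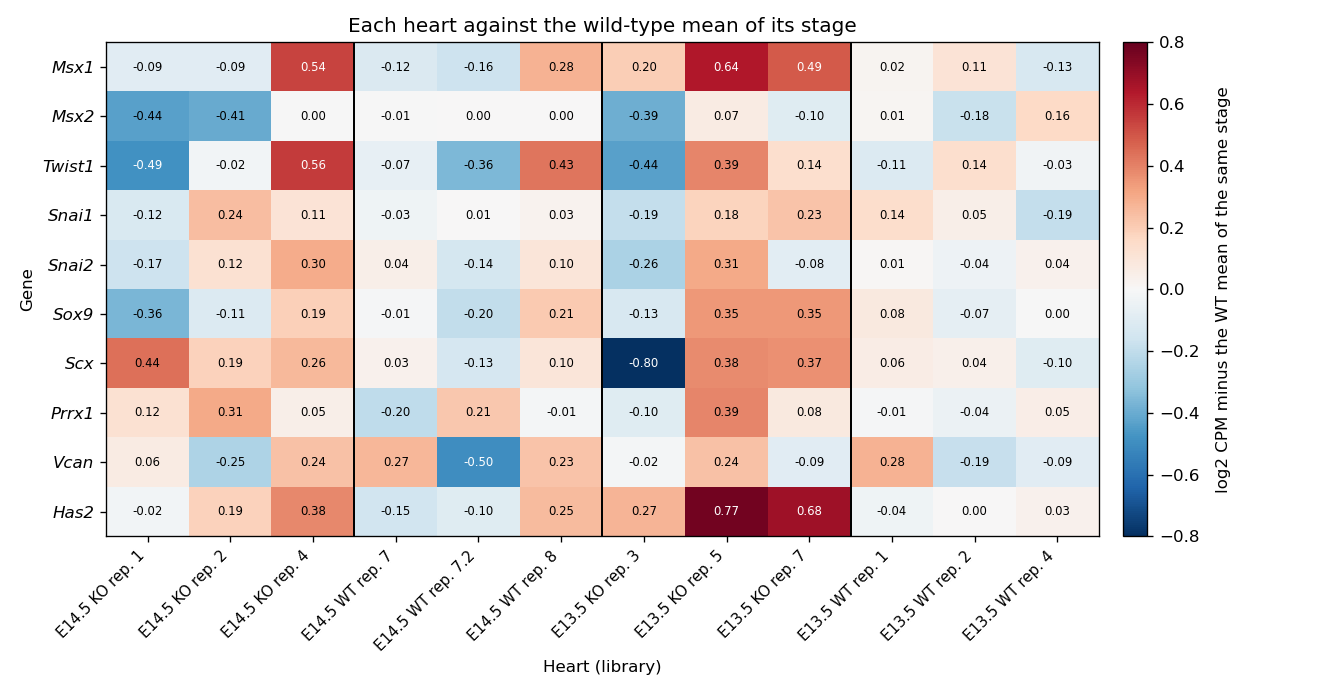
log2 CPM of each gene (rows) in each heart (columns) minus the mean of the 3 WT hearts of the same stage, with red above and blue below. In E13.5 KO replicate 3, 8 of the 10 genes are below 0, and in KO replicate 5 all 10 are above 0.

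Marker sums of other cell types differed between these hearts, in orders that were not always those of the 10 genes. Macrophage markers, 6 of 6 tested, none at 0 and none called by edgeR, summed to 22.0, 9.12 and 39.4 CPM in E13.5 KO replicates 3, 5 and 7, against 61.4 to 68.8 CPM in E13.5 WT hearts, and to 13.2 CPM in E14.5 KO replicate 2, against 46.8 to 67.1 CPM in the other 5 hearts of E14.5. Markers of airway and foregut epithelium summed to 7.88, 11.8 and 9.50 CPM in E13.5 KO hearts, against 6.34 to 6.57 CPM in E13.5 WT hearts, with 3 of 8 tested. Nearly all of that sum was Krt8, a simple-epithelium keratin also found in epicardium and other cells, while Shh was at 0 in all 12 libraries and Nkx2-1, Sftpc and Foxa2 had at most 10 counts. Tendon markers, 3 of 5 tested, summed to 82.2 to 90.9 CPM in E13.5 KO hearts, against 74.2 to 75.6 CPM in E13.5 WT hearts, nearly all of it Thbs4 and Egr1, and the tendon gene Tnmd was at 0 in 10 libraries. The part of these cells in the values of Has2, Msx1 and the others was not tested. KO replicate 5 of E13.5 and KO replicate 2 of E14.5, which had the lowest macrophage sums, were left out together because earlier results set them apart. Has2 was then at 0.49 (log2, adjusted p = 0.521 by edgeR) and Msx1 at 0.35 (adjusted p = 0.764) at E13.5. KO replicate 5 was also the highest E13.5 KO heart for both genes (8.39 and 8.86 CPM), so leaving it out lowers both estimates whatever its macrophages. The E13.5 KO hearts kept still had lower macrophage sums than the WT hearts, so this fit cannot decide the part of macrophages.

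Between the stages 8 of 10 genes had estimates below 0 in each genotype, Scx and Prrx1 being the exceptions in both. In KO hearts 2 of 10 were called lower, Msx2 and Has2, against 1.63% of all genes called lower, and 0 of 10 higher, against 2.11%. In WT hearts 1 of 10 was called lower, Msx2, against 1.96%, and 0 higher, against 2.08%. Unadjusted p was under 0.05 for 6 of 10 in KO hearts and 4 of 10 in WT hearts, against 20.1% and 22.7% of all genes. The median was -0.43 (log2) in KO hearts and -0.26 in WT hearts, against 0.004 and 0.003 over all genes. The 2 comparisons use different hearts, but in each the E14.5 hearts come from other litters than the E13.5 hearts, and stage cannot be told apart from litter.

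By non-overlap more genes lay lower in WT hearts than in KO hearts. In KO hearts Msx2 and Has2 lay lower at E14.5 with no overlap, against 12.8% of all genes, and Prrx1 higher, against 12.1%. In WT hearts Msx2, Twist1, Snai1, Snai2 and Has2 lay lower with no overlap, against 15.5% of all genes, and Prrx1 higher, against 14%. In KO hearts Sox9 had an estimate of -0.56 ± 0.16 (log2, SE, adjusted p = 0.0662 by edgeR) and Msx1 of -0.58 ± 0.19 (adjusted p = 0.105), while in WT hearts both were at -0.27, with SEs of 0.16 and 0.19 (adjusted p = 0.328 and 0.418). DESeq2 called 6 of 10 in KO hearts, Msx1, Msx2, Twist1, Sox9 and Has2 lower and Prrx1 higher, against 8.94% of all genes. In WT hearts it called 3 of 10, Msx2 and Twist1 lower and Prrx1 higher, against 10.7% of all genes.

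The stage calls were lost in several fits with 1 heart fewer, and calls over all genes moved as well: 774 genes were called in KO hearts, against 66 to 1076 with any 1 heart left out, and 836 in WT hearts, against 8 to 1081. The Has2 call in KO hearts was lost without E13.5 KO replicate 5 (adjusted p = 0.0707), E13.5 KO replicate 7 (adjusted p = 0.0830) or E14.5 KO replicate 1 (adjusted p = 0.0642). The Msx2 call in KO hearts was lost without any 1 of E13.5 KO replicates 3, 5 and 7 (adjusted p = 0.0533, 0.103 and 0.105) or of E14.5 KO replicates 1 and 2 (adjusted p = 0.0874 and 0.0727), and with litter as a block (adjusted p = 0.0641). The Msx2 call in WT hearts was lost without any 1 of the 6 WT hearts or of the 3 E13.5 KO hearts (adjusted p = 0.0514 to 0.177) and with litter as a block (adjusted p = 0.109). That block sets only litter 3 apart from litter 2 at E14.5, so it does not separate stage from litter. Every one of these fits kept the direction (log2 -0.99 to -0.76 for Has2 in KO hearts, -1.02 to -0.69 for Msx2 in KO hearts and -0.82 to -0.65 for Msx2 in WT hearts over all alternatives).

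**Figure D4:**
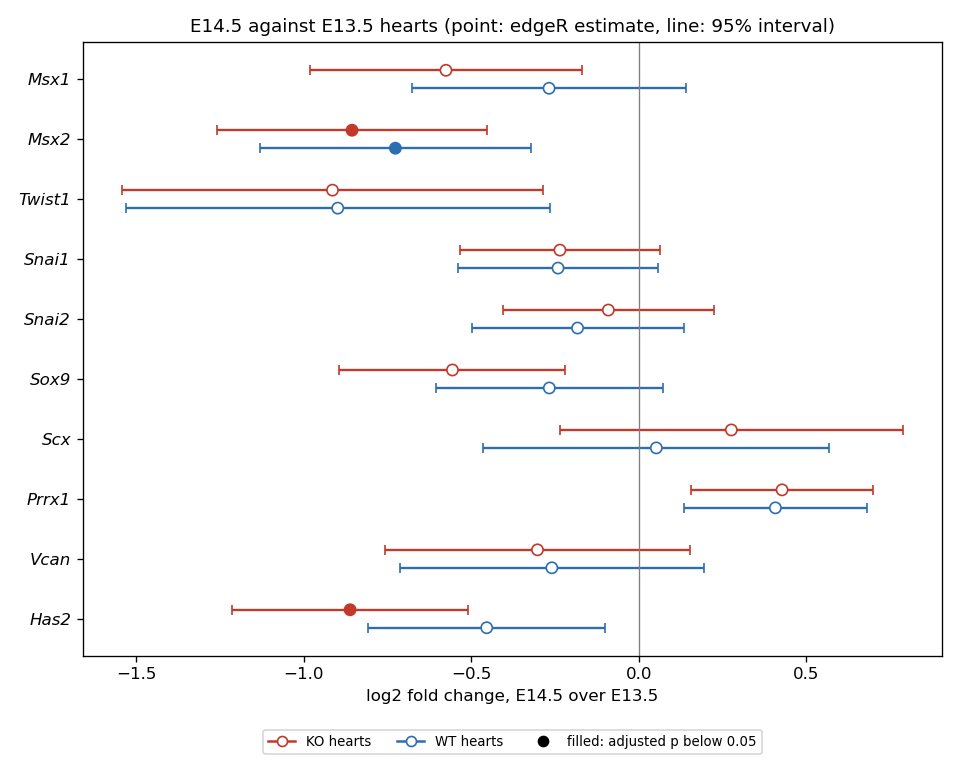
log2 fold change of E14.5 over E13.5 hearts for each gene (x axis) in KO and in WT hearts, as the edgeR estimate with its 95% interval, filled where adjusted p was below 0.05. Filled points are Msx2 in both genotypes and Has2 in KO hearts; Prrx1 alone has both intervals above 0.

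Of the cartilage markers, 10 of 12 tested, 1 was called lower between the stages in each genotype, a different gene each time, against 1.63% of all genes in KO hearts and 1.96% in WT hearts. Their sum, which was not tested, was 33.3 to 63.3 CPM in E14.5 KO hearts, against 92.7 to 119 CPM in E13.5 KO hearts, and 33.6 to 71.6 CPM in E14.5 WT hearts, against 105 to 128 CPM in E13.5 WT hearts. Matn1 was at 0 in 7 libraries, and 1 marker of the 12 was not found in the table under that symbol. Called markers were Col11a1 in KO hearts (log2 -0.90 ± 0.18, adjusted p = 0.0223 by edgeR) and Col9a2 in WT hearts (log2 -1.02 ± 0.22, adjusted p = 0.0327), collagens of cartilage that valves also make. Both also had lower means at E14.5 in the genotype where they were not called. Col11a1 averaged 11.5 ± 2.3 CPM in E14.5 WT hearts, against 17.6 ± 4.5 CPM in E13.5 WT hearts. Col9a2 averaged 10.3 ± 2.1 CPM in E14.5 KO hearts, against 18.4 ± 2.0 CPM in E13.5 KO hearts. Col11a1 lost its call without any 1 of 5 KO hearts (adjusted p = 0.0604 to 0.0797) and Col9a2 without any 1 of 4 WT hearts (adjusted p = 0.0663 to 0.116). Neural crest and glial markers, 7 of 10 tested and with the crest factors Foxd3 and Tfap2b at 0 in 2 and 5 libraries, summed to 175 to 249 CPM in E14.5 KO hearts, against 193 to 217 CPM in E13.5 KO hearts, and to 103 to 153 CPM in E14.5 WT hearts, against 204 to 215 CPM in E13.5 WT hearts. Most of that sum was Ednrb, an endothelin receptor also made by other heart cells, with 4902 to 35494 counts per library, and 0 of the 7 were called. In WT hearts 3 of the 7 lay above 0, with a median of -0.17 (log2). How far such cells, valve or not, set the stage values of Msx2, Twist1, Sox9 and Has2 was not tested.

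The signals that start the cushion programme were listed as 31 ligands, receptors and effectors of BMP, TGF-beta, Notch and EGF signalling, all tested. None was called between KO and WT hearts at E14.5 or at E13.5, where DESeq2 called 3 and 1, against 1.7% and 1.53% of all genes. Averaged over the stages 2 of 31 were called higher by edgeR and 0 lower, against 1.42% of all genes called in either direction, and the median was 0.01 (log2). These were Eng, the endothelial TGF-beta co-receptor endoglin, and the ligand Tgfb1. Eng averaged 245 ± 11 CPM in E14.5 KO hearts, against 183 ± 21 CPM in E14.5 WT hearts, and 241 ± 9 CPM in E13.5 KO hearts, against 214 ± 8 CPM in E13.5 WT hearts (SD, n = 3 each; log2 0.30 ± 0.06, adjusted p = 0.0193). Tgfb1 averaged 38.4 ± 0.3 CPM in E14.5 KO hearts, against 28.2 ± 2.7 CPM in E14.5 WT hearts, and 36.9 ± 3.2 CPM in E13.5 KO hearts, against 34.0 ± 2.1 CPM in E13.5 WT hearts (log2 0.28 ± 0.06, adjusted p = 0.0384). Both calls were lost without some hearts: Eng without KO replicate 5 or 7 or WT replicate 4 of E13.5 or KO replicate 2 of E14.5 (adjusted p = 0.0501 to 0.0719), and Tgfb1 without any 1 of 8 hearts (adjusted p = 0.0538 to 0.112).

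Between the stages 4 of these 31 signals were called higher and 4 lower in KO hearts, and 0 higher and 3 lower in WT hearts, against 2.11%, 1.63%, 2.08% and 1.96% of all genes. Smad6, the inhibitory Smad that BMP signals induce, fell in both, by 0.42 on the log2 scale in KO hearts (SE 0.07, adjusted p = 0.0146 by edgeR) and by 0.41 in WT hearts (SE 0.07, adjusted p = 0.0198). The ligand Bmp7 fell by 0.51 in KO hearts (SE 0.08, adjusted p = 0.00862) and the Notch target Hey1 was higher by 0.60 (SE 0.09, adjusted p = 0.00992). In WT hearts Tgfb2, the ligand of cushion EMT, fell by 0.51 (SE 0.10, adjusted p = 0.0237) and the trabecular ligand Bmp10 by 0.59 (SE 0.15, adjusted p = 0.0466). Means of the genotype not named lay in the same direction, though only slightly for Bmp10. In KO hearts at E14.5 and E13.5 they were 63.5 against 92.6 CPM for Tgfb2 and 44.3 against 45.8 CPM for Bmp10. In WT hearts they were 148 against 175 CPM for Bmp7 and 16.4 against 14.54 CPM for Hey1. At most 3 called genes of a list were named per comparison. A signal named for a single genotype is therefore not shown to differ between genotypes. Bmp7 and Hey1 kept their calls without any 1 heart. Smad6 lost its call in KO hearts without E13.5 KO replicate 5 or 7 or E14.5 KO replicate 1 (adjusted p = 0.0502 to 0.0709), and in WT hearts without any 1 of the 3 E13.5 WT hearts or E14.5 WT replicate 7.2 (adjusted p = 0.0534 to 0.0893). Tgfb2 was no longer called without WT replicate 1 or 4 of E13.5 or WT replicate 7.2 of E14.5 (adjusted p = 0.0730 to 0.126), and Bmp10 without any 1 of 10 hearts (adjusted p = 0.0554 to 0.211).

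Of 27 other transcription factors of valve and cushion, all tested, edgeR called 0 between KO and WT hearts in any comparison. DESeq2 called 0 at E14.5, 0 at E13.5 and 1 on average, against 1.7%, 1.53% and 4.58% of all genes. Between the stages 1 was called higher and 5 lower in KO hearts, and 0 higher and 6 lower in WT hearts, against 2.11%, 1.63%, 2.08% and 1.96% of all genes. Gata5, an endocardial GATA factor, fell by 0.97 on the log2 scale in KO hearts (SE 0.21, adjusted p = 0.0324 by edgeR) and by 1.11 in WT hearts (SE 0.21, adjusted p = 0.0243). Prrx2, the paralogue of Prrx1, fell by 0.65 in KO hearts (SE 0.15, adjusted p = 0.0373), against the direction of Prrx1, and the EMT repressor Zeb1 was higher by 0.28 (SE 0.07, adjusted p = 0.0400). In WT hearts Tbx5 fell by 0.46 (SE 0.09, adjusted p = 0.0267) and Foxc1 by 0.54 (SE 0.12, adjusted p = 0.0291). Each of these calls was lost without some single hearts: Gata5 in KO hearts without any 1 of the 3 E13.5 KO hearts or E14.5 KO replicates 1 and 2 (adjusted p = 0.0692 to 0.106), and in WT hearts without E13.5 WT replicate 1 or 4 or E14.5 WT replicate 7.2 (adjusted p = 0.0737 to 0.104). The adjusted p was 0.0507 to 0.139 for Prrx2 without any 1 of 8 hearts, 0.0511 to 0.144 for Zeb1 without any 1 of 7, 0.0527 to 0.129 for Tbx5 without any 1 of 4 and 0.0652 to 0.140 for Foxc1 without any 1 of 4. Means of the genotype not named lay in the same direction for Prrx2, Zeb1, Tbx5 and Foxc1. In WT hearts at E14.5 and E13.5 they were 18.4 against 29.5 CPM for Prrx2 and 94.3 against 80.0 CPM for Zeb1. In KO hearts they were 37.5 against 48.6 CPM for Tbx5 and 27.6 against 33.8 CPM for Foxc1. A gene named for a single genotype is therefore not shown to differ between them. Several of these factors, Gata5 and Tbx5 among them, are also made outside the cushions.

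In the matrix beside Vcan and Has2, edgeR called 1 gene between the genotypes. Of 30 valve matrix genes and of 16 tested genes of hyaluronan synthesis, breakdown and binding (17 listed), 1 was called higher in KO hearts at E14.5, 0 at E13.5 and 1 on average. Over all genes 0.222%, 0.106% and 1.42% were called in either direction. The called gene was Cd44 each time, which stands in both lists and encodes the hyaluronan receptor. Cd44 had 57.4, 54.7 and 68.6 CPM in E14.5 KO hearts, against 40.0, 39.0 and 45.4 CPM in E14.5 WT hearts (log2 0.54 ± 0.09, adjusted p = 0.0269 by edgeR). It had 75.7, 80.6 and 74.5 CPM in E13.5 KO hearts, against 72.2, 64.5 and 70.8 CPM in E13.5 WT hearts, and the average over the stages was 0.35 ± 0.06 (adjusted p = 0.0159). KO hearts lay above WT hearts without overlap at both stages, as did 6.81% of all genes at E14.5 and 8.44% at E13.5. Cd44 is carried by blood and other cells as well as by mesenchyme, and its E14.5 call was lost without KO replicate 4 or WT replicate 7 or 7.2 of E14.5 or KO replicate 3 of E13.5 (adjusted p = 0.0546 to 0.148). Over all alternatives the E14.5 call held in 14 of 21 settings, with adjusted p up to 0.220. The average call was lost without E13.5 KO replicate 5 or E13.5 WT replicate 4 (adjusted p = 0.0507 each). DESeq2 called 1 of the 30 matrix genes higher at each stage and 4 on average. Over all genes DESeq2 called 1.7% at E14.5, 1.53% at E13.5 and 4.58% on average. Of 6 proteases that cleave versican, 0 were called by edgeR in any comparison, while DESeq2 called 1 lower at E13.5 and 1 higher on average.

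Between the stages Cd44 fell by 0.35 on the log2 scale in KO hearts (SE 0.09, adjusted p = 0.0447 by edgeR) and by 0.74 in WT hearts (SE 0.09, adjusted p = 0.00635). Decorin (Dcn), a small proteoglycan of maturing fibrous matrix, was higher by 0.59 in KO hearts (SE 0.10, adjusted p = 0.0160) and by 0.52 in WT hearts (SE 0.10, adjusted p = 0.0243). It averaged 165 ± 22 CPM in E14.5 KO hearts, against 110.02 ± 12 CPM in E13.5 KO hearts, and 171 ± 5 CPM in E14.5 WT hearts, against 119 ± 11 CPM in E13.5 WT hearts (SD, n = 3 each). The Dcn call was lost in KO hearts without E13.5 KO replicate 3 or 7 or E14.5 KO replicate 1 (adjusted p = 0.0519 to 0.0709), and in WT hearts without any 1 of the E13.5 WT hearts or E14.5 WT replicate 7.2 (adjusted p = 0.0630 to 0.111). The Cd44 call in KO hearts was lost without any 1 of 9 hearts (adjusted p = 0.0564 to 0.136). No other gene of the 30 was called between the stages.

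Markers of the endothelium that carries the disruption were 10, all tested, and 2 were called lower in KO hearts on average, against 1.42% of all genes called in either direction. The list as a whole was not lower: on average 7 of 10 estimates lay above 0 (median 0.08, log2), against 49.3% of all genes. At E14.5 8 of 10 lay above 0 (median 0.22), against 48.1%, and at E13.5 4 of 10 (median -0.07), against 50.4%. Pecam1, the endothelial adhesion molecule, averaged 124 ± 13 CPM in E14.5 KO hearts, against 155 ± 6 CPM in E14.5 WT hearts, and 93.0 ± 2.1 CPM in E13.5 KO hearts, against 143 ± 8 CPM in E13.5 WT hearts (log2 on average -0.47 ± 0.05, adjusted p = 0.000785 by edgeR). The secreted factor Cytl1 averaged 2.01 ± 1.04 CPM in E14.5 KO hearts, against 7.76 ± 1.94 CPM in E14.5 WT hearts, and 1.35 ± 0.32 CPM in E13.5 KO hearts, against 4.16 ± 1.04 CPM in E13.5 WT hearts (log2 on average -1.79 ± 0.27, adjusted p = 0.00873). The vascular cadherin Cdh5, which was not called, averaged 276 ± 22 CPM in E14.5 KO hearts, against 254 ± 25 CPM in E14.5 WT hearts, and 232 ± 10 CPM in E13.5 KO hearts, against 256 ± 7 CPM in E13.5 WT hearts. Plvap, also not called between the genotypes, had higher means in KO hearts at both stages. It averaged 99.5 ± 14.9 CPM in E14.5 KO hearts, against 66.4 ± 14.3 CPM in E14.5 WT hearts. At E13.5 it averaged 134.7 ± 2.6 CPM in KO hearts, against 109.7 ± 2.9 CPM in WT hearts. The E13.5 call of Pecam1 (log2 -0.62 ± 0.08, adjusted p = 0.00809) was lost without E13.5 KO replicate 3 or E13.5 WT replicate 4 (adjusted p = 0.0509 and 0.0700), while on average neither gene lost its call without any 1 heart. DESeq2 called 2 of the 10 markers higher and 2 lower on average, against 4.58% of all genes called by DESeq2 in either direction.

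Of the other marker lists, 10 epicardial markers had 0 called between the genotypes, 7 cardiomyocyte markers 0, 7 tested neural crest and glial markers 0, 3 tested skeletal muscle markers 0 and 6 macrophage markers 0 by edgeR, in every comparison of KO with WT. Of 8 smooth muscle and pericyte markers 1 was called higher on average, Cnn1 (log2 0.34 ± 0.06, adjusted p = 0.0109), against 1.42% of all genes called in either direction. Thbs4 of the tendon list (log2 0.38 ± 0.08, adjusted p = 0.0411) and Krt8 of the airway list (log2 0.72 ± 0.15, adjusted p = 0.0356) were called higher on average, and lost the call without any 1 of 9 and of 8 hearts (adjusted p = 0.0525 to 0.113 and 0.0518 to 0.102).

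Genes whose log2 CPM over the 12 libraries ran most like the mean of the 10 standardised genes were Shroom1 (Pearson r = 0.97, Spearman rho = 0.96), Papss2 (0.93 and 0.93), Serinc2 (0.92 and 0.89), Apcdd1 (0.91 and 0.83) and Shisa2 (0.91 and 0.94). They were ranked among the 15720 genes that averaged 1 CPM or more. Shroom1 belongs to a family of actin-binding proteins, Papss2 makes the sulphate donor for matrix glycans, and Apcdd1 inhibits Wnt signalling. Papss2 had 5.46, 7.21 and 12.7 CPM in E14.5 KO hearts, against 6.52, 6.67 and 9.31 CPM in E14.5 WT hearts. It had 7.52, 19.4 and 20.7 CPM in E13.5 KO hearts, against 10.6, 7.99 and 8.74 CPM in E13.5 WT hearts. E13.5 KO replicates 5 and 7 were high and KO replicate 3 low, as for most of the 10 genes. The points share library, stage and litter, so the likeness is a description of these 12 hearts.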

How the data were processed

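The authors deposited a table of raw gene counts for the 12 libraries, made from mRNA of whole hearts. Per the submitters' processing notes, STAR 2.5.3a, featureCounts, DESeq and DESeq2 were used with GRCm38. For the annotation release and the strand setting of the counting, nothing is stated in those notes. Members (10 genes) and all other lists were chosen with earlier results of these data known.

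Counts were tested in R 4.3.3 with edgeR 4.0.16 (filterByExpr, TMM, quasi-likelihood F-test, two-sided) on 1 mean per group over all 12 libraries, with Benjamini-Hochberg adjustment over 20691 genes and a threshold of 0.05. SEs are the fold change over the root of F. The robust option of the quasi-likelihood fit was not in the written design. It was switched on after the counts had been seen, so that the number of genes called over the whole table matched an earlier treatment of the same counts; the fit without it called the same number of the 10 genes in each comparison. log2 CPM used a prior count of 2, and lengths are merged exons of GENCODE M21. DESeq2 1.42.0 was an alternative. Scripts were tested on simulated data.

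Named genes were all 10 members, Ino80, at most 3 called genes of each list per comparison by smallest p, and the 5 genes most like the 10. Cdh5 was chosen after its values were seen. Libraries held 46556032 to 182545647 counts. The lowest chi-square per degree of freedom between any 2 libraries was 18.4, so none was a copy. Over all genes, residuals of KO and WT hearts of the same litter hardly deviated together at E14.5 (mean r 0.004 over 5 pairs, against -0.005 over 4 pairs of different litters). Residuals sum to 0 in each group, so these 2 means are not independent of each other. They do not speak for the 10 genes, of which 7 were lowest in KO replicate 1 and 6 in WT replicate 7.2, both of litter 3. The labels name the litters, so a litter block, which sets litter 3 apart from litter 2 at E14.5, was fitted as an alternative.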

Additional observations from a re-analysis of the deposited data

How the results depend on the processing

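Each value was recomputed under 21 other settings (20 for the average over the stages and the difference of the KO effect, which need all libraries), 2217 results in all, of which 1838 kept direction and side of the threshold, 276 lost and 12 gained a call, and 91 changed sign. The robust option of the main fit was not in the written design and was switched on after the counts had been seen. The fit without it was added as an alternative, also after seeing the data. A pair of KO hearts, replicate 5 of E13.5 and replicate 2 of E14.5, was left out together because earlier results set them apart. Where a fit left out a heart, the remaining hearts of its group were assumed to vary like the others. The cause of a change was not tested. No result separates stage from litter, and differences in the cells of a whole heart limit every value.

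Of the 10 genes, those called between the stages in KO hearts numbered 2 in the report, 6 by DESeq2, 0 with only the libraries compared, 0 without both those hearts, 1 without litter 3 and 0 to 5 with any 1 heart left out. Calls over all genes moved too, being 774 in the report, 1775 by DESeq2, 289 with only the libraries compared, 130 without both those hearts, 699 without litter 3 and 66 to 1076 with any 1 heart left out. In WT hearts they numbered 1 in the report, 3 by DESeq2, 0 without a filter, 0 without both those hearts, 0 without litter 3, 0 with Y-linked expression as a covariate and 0 to 1 with any 1 heart left out, while calls over all genes were 836, 2118, 771, 474, 95, 623 and 8 to 1081 in the same order. Between KO and WT, DESeq2 called 1 at E13.5 and 1 on average, and over all genes 314 and 909, against 22 and 293 by edgeR.

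With litter as a replicate block, which pairs hearts of the same litter, 1 gene was called between the stages in KO hearts and 0 in WT hearts, with 332 and 299 calls over all genes. The block turned the sign of Snai1 for the difference of the KO effect (log2 -0.0012) and of Vcan at E14.5 (0.030), neither of them called.

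None of the other values that changed sign was called in the report. Without both those hearts the log2 values were, at E13.5, -0.0086 for Prrx1, -0.10 for Scx, -0.17 for Snai2, -0.12 for Twist1 and -0.067 for Vcan; at E14.5, -0.0043 for Snai1 and 0.11 for Vcan; on average, -0.043 for Snai2 and -0.012 for Twist1. For the difference of the KO effect they were 0.040 for Msx2, -0.035 for Snai1, 0.22 for Twist1 and 0.18 for Vcan, and between the stages in KO hearts 0.064 for Snai2 and 0.051 for Ino80. Without litter 3 they were 0.030 for Twist1 and -0.022 for Ino80 for the difference of the KO effect, 0.017 for Snai2 between the stages in KO hearts and -0.10 for Vcan on average. With Y-linked expression as a covariate they were -0.0088 for Prrx1 for the difference of the KO effect and 0.029 for Vcan at E14.5. Snai2 at E13.5 was -0.0041 by DESeq2 and -0.0016 without a filter, and Vcan at E14.5 was 0.0013 without a filter.

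With any 1 heart left out, log2 values that changed sign spanned the following ranges. At E13.5 Prrx1 spanned -0.0088 to 0.23, Scx -0.11 to 0.37, Snai1 -0.019 to 0.19, Snai2 -0.17 to 0.11, Twist1 -0.12 to 0.26 and Vcan -0.068 to 0.18. At E14.5 Msx1 spanned -0.10 to 0.30, Snai1 -0.0039 to 0.18, Snai2 -0.017 to 0.21, Sox9 -0.24 to 0.040, Twist1 -0.27 to 0.29 and Vcan -0.22 to 0.12. On average Snai2 spanned -0.036 to 0.11, Sox9 -0.022 to 0.13, Twist1 -0.11 to 0.18 and Vcan -0.093 to 0.088. For the difference of the KO effect Prrx1 spanned -0.074 to 0.16, Scx -0.066 to 0.41, Snai1 -0.10 to 0.11, Snai2 -0.015 to 0.26, Twist1 -0.33 to 0.23 and Vcan -0.24 to 0.095. Between the stages in KO hearts Ino80 spanned -0.067 to 0.052, Scx -0.021 to 0.46 and Snai2 -0.21 to 0.078, and in WT hearts Scx spanned -0.0024 to 0.11.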

Other observations

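Of 10 epicardial markers, all tested, 1 was called lower between the stages in KO hearts and 2 in WT hearts, against 1.63% and 1.96% of all genes. Krt19, a simple-epithelium keratin, fell by 0.82 on the log2 scale in KO hearts (SE 0.20, E14.5 over E13.5, adjusted p = 0.0476 by edgeR) and by 0.93 in WT hearts (SE 0.20, adjusted p = 0.0355), and the zinc finger gene Bnc1 fell by 0.76 in WT hearts (SE 0.13, adjusted p = 0.0189). In KO hearts, where it was not called, Bnc1 averaged 10.7 CPM at E14.5, against 14.3 CPM at E13.5. The Krt19 call held in 6 of 21 other settings in KO hearts and in 13 of 21 in WT hearts, with adjusted p up to 0.136 and 0.161, and the Bnc1 call in 18 of 21, with adjusted p up to 0.0870. Among 8 smooth muscle and pericyte markers, the pericyte gene Rgs5 was higher by 2.40 in KO hearts (SE 0.31, adjusted p = 0.00917) and by 2.499 in WT hearts (SE 0.31, adjusted p = 0.0150), while the contractile gene Cnn1 fell by 0.62 in each (SE 0.08, adjusted p = 0.00333 in KO hearts and 0.00855 in WT hearts). The Cnn1 calls held in 21 of 21 other settings in each genotype, and the Rgs5 calls in 20 of 21 in KO hearts, lost without E13.5 KO replicate 7 (adjusted p = 0.0543), and in 19 of 21 in WT hearts, lost without E13.5 WT replicate 1 or 4 (adjusted p = 0.0609 to 0.0785).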
